A study of Mus musculus with 2 samples.

Results

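Pou5f1, Nanog, Sox2 and Sall4 encode transcription factors at the core of the pluripotency network, and the CpG states at and around these 4 genes were examined in E14 mouse embryonic stem cells (mESCs). The genes were chosen by name, as 4 of 21938 protein-coding genes, and not by any measured level, although earlier results of these data were known. Each locus was taken from 20 kb upstream to 10 kb downstream of the gene, in the direction of transcription. The windows hold 2794 CpGs in the reference genome. Of 13676795 CpG sites with calls in replicate 1, 1727 lie in the 4 windows, and of 4918612 sites in replicate 2, 670 do. SCoTCH-seq reads C, 5-methylcytosine (M) and 5-hydroxymethylcytosine (H) on both strands of a CpG in 1 read pair. Each CpG that a read pair covers thus gets 1 of 9 CpG states. A read pair can cover several CpGs, so calls at neighbouring CpGs can come from the same fragment. Both libraries are from 1 condition, genomic DNA of untreated E14 cells in serum and LIF, and they come from 2 passages of the line, so their difference covers passage and library preparation but no independent line. E14 is a single line derived from 129 strain mice, while the reads had been aligned to a reference of strain C57BL/6J. The study's methods and the sample labels state different serum percentages. RNA was not measured in these samples, so the expression of the 4 genes and of other stem cell markers in these cultures could not be checked.

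In mESCs, OCT4 (the product of Pou5f1) and SOX2 bind DNA together at many enhancers, including enhancers of their own genes and of Nanog. NANOG stabilises self-renewal, and SALL4 is a zinc finger factor that works with them. DNMT1 copies methylation onto the new strand after replication, and TET enzymes oxidise M to H. A CpG with the same base on both strands is called CC, MM or HH, and a CpG with 1 modified strand is called MC or CM (hemimethylated) or HC or CH, with the plus strand written first. HM and MH have H on 1 strand and M on the other. Mirror-image states are summed below, as MC/CM, HC/CH and HM/MH. A level is the percentage of all calls in a region, given first for replicate 1 and then for replicate 2, with exact 95% Clopper-Pearson intervals that cover counting error only. The intervals treat calls as independent, which calls at neighbouring CpGs of the same fragment are not. Levels are as called, without correction for miscalls, unless stated.

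In GRCm38 (mm10) coordinates, Pou5f1 (ENSMUSG00000024406.16) spans chr17:35506018-35510772 on the plus strand. Nanog (ENSMUSG00000012396.12) spans chr6:122707489-122714633 on the plus strand. Sox2 (ENSMUSG00000074637.7) has 1 exon and spans chr3:34650405-34652461 on the plus strand, inside the long noncoding transcript Sox2ot. Sall4 (ENSMUSG00000027547.17) spans chr2:168748332-168767943 on the minus strand. The transcription start site (TSS) of each gene was taken as the first base of this annotated span, in the direction of transcription. No start site was measured, and annotated transcripts can start farther inside. So defined, the 4 genes start in very different sequence. The 200 bases before each TSS are given from the genome in the direction of transcription, 5′ to 3′. Each CpG is in capitals, because CpG states can be read only there.
Pou5f1, chr17:35505818-35506017, plus strand: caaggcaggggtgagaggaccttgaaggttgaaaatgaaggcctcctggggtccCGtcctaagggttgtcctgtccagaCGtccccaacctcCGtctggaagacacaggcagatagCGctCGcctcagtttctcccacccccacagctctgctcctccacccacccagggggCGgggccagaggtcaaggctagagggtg
Nanog, chr6:122707289-122707488, plus strand: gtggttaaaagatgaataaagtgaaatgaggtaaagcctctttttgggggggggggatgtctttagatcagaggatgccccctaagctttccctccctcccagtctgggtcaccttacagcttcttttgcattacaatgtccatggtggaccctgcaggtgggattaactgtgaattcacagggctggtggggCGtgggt
Sox2, chr3:34650205-34650404, plus strand: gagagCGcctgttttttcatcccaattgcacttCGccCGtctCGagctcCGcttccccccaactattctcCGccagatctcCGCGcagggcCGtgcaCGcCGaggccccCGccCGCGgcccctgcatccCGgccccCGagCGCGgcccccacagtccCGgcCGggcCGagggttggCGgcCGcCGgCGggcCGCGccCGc
Sall4, chr2:168767944-168768143, minus strand: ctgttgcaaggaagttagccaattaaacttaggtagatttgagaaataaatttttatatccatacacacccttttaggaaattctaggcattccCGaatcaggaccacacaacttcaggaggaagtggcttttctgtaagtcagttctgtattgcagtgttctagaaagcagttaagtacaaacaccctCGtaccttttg

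The Sox2 stretch holds 28 CpGs and the Pou5f1 stretch 6, against a median of 7 over 21938 protein-coding genes. The Sall4 stretch holds 2 and the Nanog stretch only 1, and 9.63% of genes have fewer CpGs there than Nanog. A Sox-Oct core motif (TTGTNATGC, searched on both strands) occurs in the Nanog stretch as GCATTACAA, starting 72 bases before the TSS. None of the other stretches holds it, and it occurs in 178 of the 21938 stretches (0.811%). The octamer ATGCNAAT, also searched on both strands, occurs in 2.12% of them and in none of the 4. Their letters overlap in part, so 1 stretch can match both. The matched bases hold no CpG, so no CpG state was read there. The only CpG before the Nanog TSS in this stretch, 7 bases upstream, was CC in all 5 calls of replicate 1 and was not covered in replicate 2. In replicate 1, all 29 calls at 5 Sox2 CpGs were CC as well. At Pou5f1, 95.8% of 48 calls at 5 CpGs were CC and the rest were MC/CM. At Sall4, 81.8% of 33 calls at 2 CpGs were CC and 15.2% were MM, in a stretch that overlaps an exon of the antisense transcript Gm14261.

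Depth limits single sites more than regions. Replicate 1 covered 58.6 to 65.2% of the reference CpGs of a locus at a mean depth of 9.83 to 11.5 calls, with 3105 to 6262 calls per locus. Replicate 2 covered 21.3 to 29.5% at a mean depth of 6.19 to 6.87, with 873 to 1573 calls per locus. In all, 614 sites were covered in both. Deposited sites have at least 5 calls, and the whole libraries average 10.5 and 6.36 calls per site. The windows fall into 156 bins of 1 kb, of which 92 had 3 sites and 15 calls in each replicate and were counted against the level thresholds below.

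All 4 loci were mostly unmodified. The Pou5f1 window was 77.6% CC (76.1 to 79.0) and 80.6% CC (77.8 to 83.1). The Sox2 window was 79.1% CC (78.0 to 80.2) and 73.8% CC (71.0 to 76.5). The Sall4 window was 64.0% and 58.0% CC and the Nanog window 59.7% and 62.5% CC, so Pou5f1 and Sox2 lay above Sall4 and Nanog in both replicates, while the order within each pair changed between them. As means of the 2 replicates, these are 79.1 ± 2.12% for Pou5f1, 76.5 ± 3.77% for Sox2, 61.1 ± 2.03% for Nanog and 61.0 ± 4.22% for Sall4 (SD, n = 2). MM showed the opposite order, with 13.2% and 9.77% at Pou5f1, 11.4% and 14.4% at Sox2, 21.5% and 24.5% at Sall4 and 24.9% and 22.5% at Nanog.

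The same windows around 19612 protein-coding genes with at least 30 sites in each replicate had a median CC level of 28.0% and 24.0%. Pou5f1 stood above 99.7% and 99.9% of them, Sox2 above 99.8% and 99.7%, Sall4 above 97.9% and 97.0%, and Nanog above 96.1% and 98.3%. The windows were not matched for gene length. The flanks also had more CC than those of all genes, although these flanks hold other annotated genes, among them Tcf19 and Cchcr1 at Pou5f1, Atp9a at Sall4, Gm42692 and Gm27611 at Sox2 and the pseudogenes Gm10420 and Gm10224 at Nanog. From 20 to 5 kb upstream, Pou5f1 was 58.1% and 68.7% CC, Sox2 65.0% and 61.7%, Nanog 46.4% and 52.0% and Sall4 43.1% and 50.6%, where all protein-coding genes together had 30.1% and 27.1%. In the 10 kb downstream, the 4 loci ranged from 53.0 to 79.1% in replicate 1 and from 48.5 to 76.2% in replicate 2, against 32.7% and 29.7%.

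**Figure D1:**
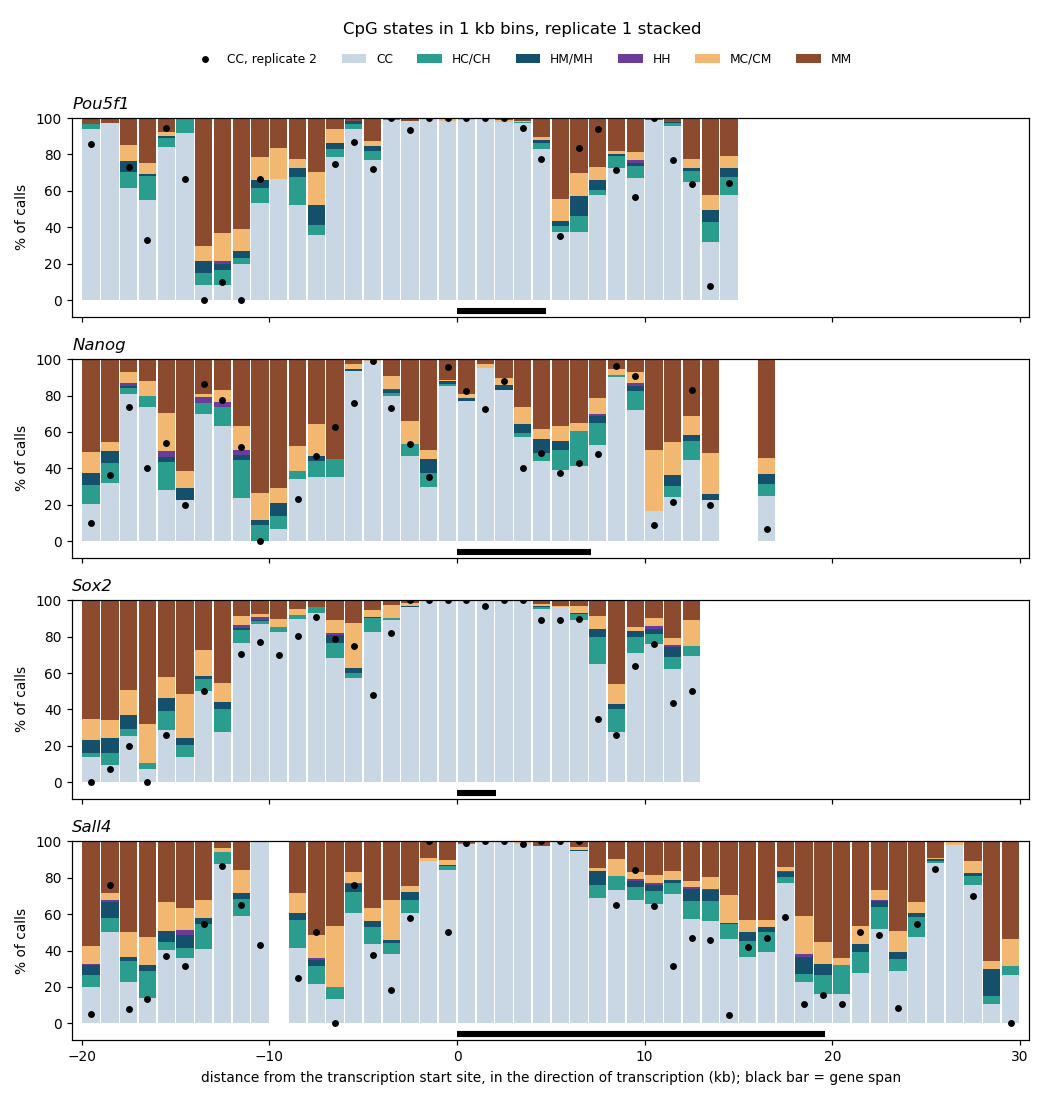
CpG states in 1 kb bins from 20 kb upstream of the TSS to 10 kb downstream of each gene; the vertical axis is the percentage of calls in the bin, the stacked bars are replicate 1, black dots are the CC level of replicate 2 and the black bar below is the gene. Pale bars near 100% mark the unmodified stretch at each TSS, 8 kb long at Pou5f1, 11 kb at Sox2 and 7 kb at Sall4, and Nanog shows MM within the bin that starts at its TSS.

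Around the TSS, the Pou5f1, Sox2 and Sall4 loci each had a long stretch that was almost purely CC. Taking bins joined to the TSS with at least 80% CC in each replicate with calls, an extent described after the values were seen, it ran at Pou5f1 from 4 kb upstream to 4 kb downstream. There, 98.6% of 1039 calls and 98.1% of 370 calls were CC. This stretch includes most of the gene and the upstream region where its distal and proximal enhancers are known to lie. At Sox2 it ran from 4 kb upstream to 7 kb downstream, over 11 kb, with 96.8% of 2315 calls and 94.6% of 466 calls CC. No minimum of sites or calls was applied to the bins of these stretches. In replicate 2, the bin from 3 to 2 kb upstream of Sox2 held 5 calls at 1 site. The bin from 2 to 1 kb upstream of Pou5f1 held 11 calls at 2 sites there. The Sox2 regulatory regions SRR1 and SRR2, which OCT4 and SOX2 bind, are known to lie a few kilobases to either side of the gene. The single exon of Sox2 gave 99.8% CC in 582 calls, with 0 MM calls (upper limit 0.632%), and 98.5% CC in 67 calls.

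At Sall4 the stretch lay on 1 side of the TSS, as defined by the annotated span. It ran from the TSS to 7 kb into the gene, where 98.4% of 1392 calls and 99.3% of 273 calls were CC. In replicate 2, its last bin held 6 calls at 1 site and its bin from 1 to 2 kb past the TSS 10 calls at 2 sites. The bin before the Sall4 TSS was 84.1% CC with 10.2% MM in replicate 1, and 50.0% CC in replicate 2 from 10 calls at 2 sites, and the end of the stretch at the TSS rests on those calls. The bin from 2 to 1 kb upstream was 88.9% and 100% CC, the latter from 18 calls. The bin from 3 to 2 kb upstream was 60.7% and 57.7% CC. By contrast, the first bin of the gene was 98.5% and 98.8% CC. Further in, introns 1, 2 and 3 of Sall4 were 98.4 to 100% CC in both replicates, and intron 4 was 72.0% and 75% CC.

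Within these stretches, few calls held 5-hydroxymethylcytosine, which follows in part from choosing bins with at least 80% CC. States with H came to 2 of 1039 calls (0.192%) and 4 of 370 calls (1.08%) at Pou5f1. At Sox2 they made up 17 of 2315 calls (0.734%) and 2 of 466 calls (0.429%). At Sall4 they made up 5 of 1392 calls (0.359%) and 0 of 273 calls (upper limit 1.34%). On unmodified spike-in CpGs, 0.154% and 0.219% of calls were HC/CH, which lies below the intervals of the Sox2 stretch in replicate 1 (0.428 to 1.17%) and the Pou5f1 stretch in replicate 2 (0.295 to 2.74%) and within the other 4 intervals. These rates leave out HM/MH and HH, which the stretch counts include. They also leave out miscalls of M, and in replicate 1, 3.49% of calls on MC spike-ins were HC and 4.51% on MM spike-ins were HM/MH. Whether H in the stretches exceeds all miscalls was not tested. Of the 17 such calls at Sox2 in replicate 1, 11 lay in the last bin of the stretch, 6 to 7 kb past the TSS, and the rest of the stretch had 6 of 2042 calls (0.294%, 0.108 to 0.638). Likewise, 2 of the 4 calls at Pou5f1 in replicate 2 lay in its last bin, and the rest had 2 of 297 (0.673%, 0.0817 to 2.41). These bins were singled out after their values were seen. Within 1 kb of the TSS in both directions, calls were 98.7% and 100% CC at Pou5f1, 99.8% and 100% at Sox2 and 94.8% and 93.5% at Sall4, against 78.4% and 76.5% over all protein-coding genes. The same 2 kb at Nanog were 80.1% and 86.2% CC.

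Counted by bin, 33 of the 92 tested bins (35.9%) had at least 80% CC in both replicates, and 6.0% of the 681795 bins of all protein-coding windows did. Bins shared by overlapping gene windows are counted for each gene in that background, and longer genes add more bins to it. Over all protein-coding genes, introns beyond 1 kb held more calls than any other region and were 20.7% and 17.6% CC. Sox2 has no intron, and the background was not matched for gene length. Sox2 had 12 such bins of 24, Pou5f1 10 of 19, Sall4 7 of 30 and Nanog 4 of 19. None of the 92 bins had at least 80% MM in both replicates (background 0.850%), and none had at least 20% MC/CM in both (background 4.43%). The bin with the most MC/CM at each locus, by the lower replicate, had 12% and 5.88% at Pou5f1, 8.77% and 20% at Nanog, 11.3% and 13.0% at Sox2 and 15.2% and 28.6% at Sall4. In replicate 2 these bins held only 15 to 23 calls each, and their intervals were wide.

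**Figure D2:**
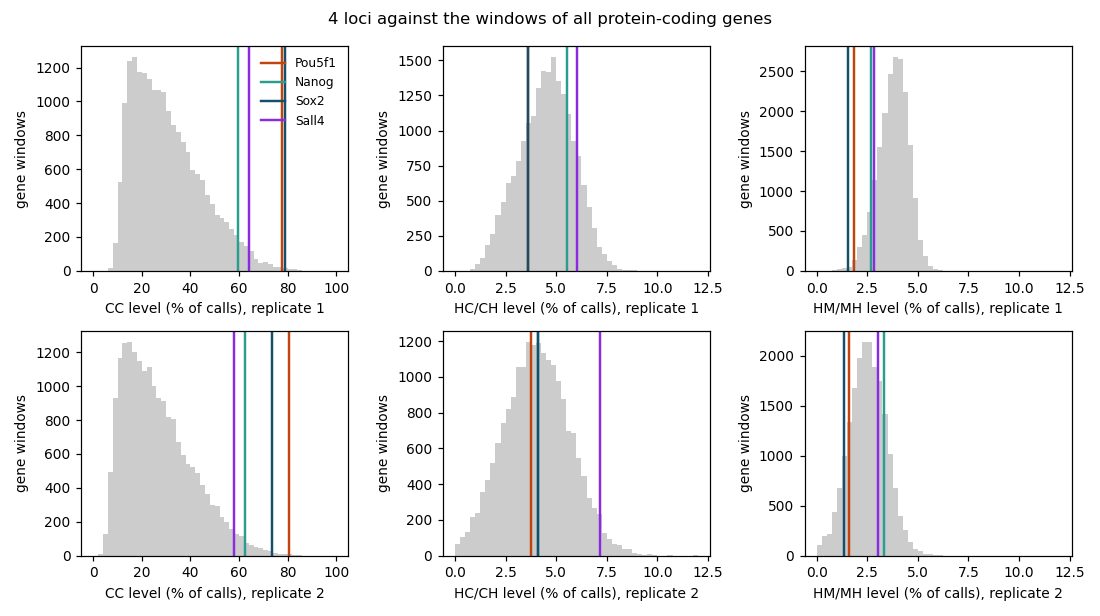
Histograms of the CC, HC/CH and HM/MH levels (percentage of calls, horizontal axes) of 19612 protein-coding gene windows, with the number of windows on the vertical axes, replicate 1 above and replicate 2 below; coloured lines are the 4 loci. The CC lines all lie in the right tail. The HC/CH lines of Pou5f1 and Sox2 lie left of the middle in replicate 1 and near it in replicate 2, and that of Sall4 lies on the right side.

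At Nanog, the bin that starts at the TSS did not reach 80% CC in both replicates, and the CC regions were separated by methylated ones. The bin from 5 to 4 kb upstream, where a well-known Nanog enhancer lies, was 98.7% CC in both replicates, from 155 and 79 calls. The bin from 2 to 1 kb upstream had 29.7% and 35.5% CC with 50.0% and 41.9% MM, and therefore stood between this region and the promoter. The bin before the TSS was 85.0% and 95.5% CC, and the bin after it 76.9% and 82.4% CC with 19.3% and 13.9% MM. From 4 to 6 kb past the TSS, in the last introns and exons, bins were 37.5 to 48.3% CC, and the bin from 8 to 9 kb past the TSS, beyond the gene end, was 90.4% and 96.2% CC.

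Many of the MM calls near the Nanog TSS fell within an exon, and others lay farther upstream. Exon block 2 (overlapping exons of the annotated transcripts merged) runs from 76 to 444 bases past the TSS. It had 37.4% MM (29.1 to 46.3) in 131 calls and 31.9% MM (19.1 to 47.1) in 47 calls. In the 500 bases before it, 0 of 55 calls and 0 of 13 calls were MM, with upper limits of 6.49% and 24.7%. In the 500 bases after it, 2 of 133 calls (1.5%) and 0 of 61 calls were MM (upper limit 5.87%). The intervals of exon and flanks did not overlap in replicate 1, and in replicate 2 the exon's interval lay above that of the bases after it and overlapped that of the bases before it. Calls at neighbouring sites, such as those at 346, 359 and 389 bases, can come from the same fragments. They are then not independent, so these intervals are too narrow. This stretch was singled out after its values were seen, and no test was made.

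Inside the block, the sites at 84 and 94 bases were CC in all 5 calls each. The site at 152 bases then had 8 MM of 14 calls and 3 MM of 7 calls. The sites at 346, 359 and 389 bases had 11 of 32, 15 of 32 and 11 of 31 MM calls in replicate 1 and 2 of 12, 5 of 14 and 5 of 14 in replicate 2. The next site, at 462 bases and in the intron, was CC in all 12 and all 9 calls. From -1000 to -425, 20 of 118 calls in replicate 1 were MM (16.9%, 10.7 to 25.0), and 2 of 31 in replicate 2 (6.45%, 0.791 to 21.4). In replicate 1 these MM calls came from the 8 covered sites between -945 and -685, each of which had at least 1, among them 4 of 6 and 4 of 9 calls at -765 and -759. Most calls in the block were either CC or MM, with 55.7% and 59.6% CC, and 5 of 131 and 3 of 47 calls held H.

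**Figure D3:**
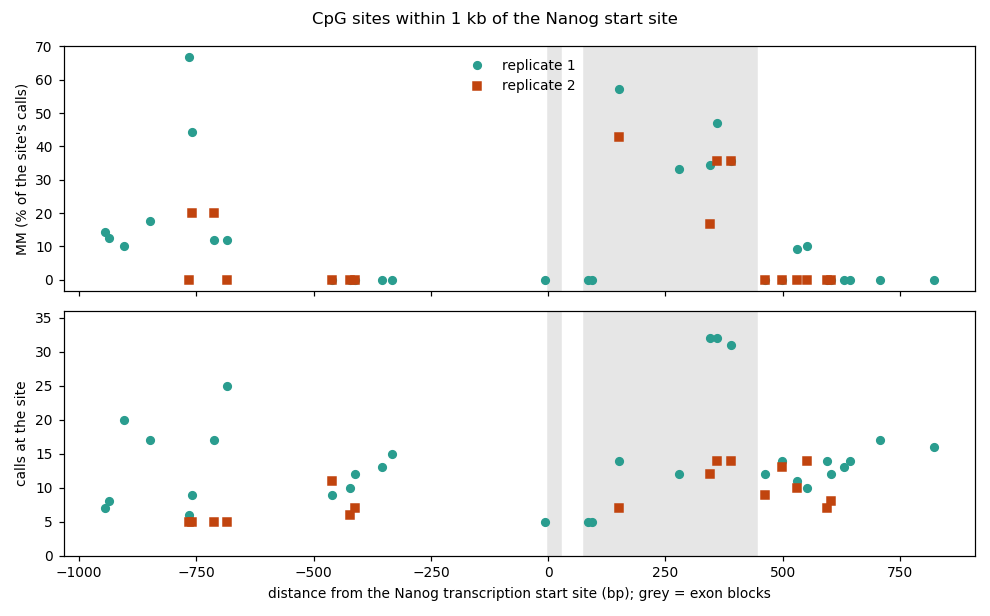
CpG sites within 1 kb of the Nanog TSS, with the percentage of MM calls at each site above and the number of calls at the site below, against the distance from the TSS in bp; circles are replicate 1, squares replicate 2, and grey bands are exon blocks. In replicate 1, MM is between 33.3% and 57.1% at the 5 sites from 152 to 389 bases past the TSS, 3 of which carry 31 or 32 calls, and MM also appears at sites between -945 and -685.

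Depth differed within the block. The sites at 346, 359 and 389 bases had 31 or 32 calls in replicate 1, and those at 152 and 279 bases had 14 and 12. The block had a mean depth of 18.7 calls and up to 32 calls at a site, where the 500 bases on either side had means of 11 and 13.3 and at most 17. In replicate 2 its mean was 11.8, against 6.50 and 10.2. MM was also present in the other Nanog exons. Exon blocks 3, 4 and 5 had 45.2%, 50.0% and 40.3% MM in replicate 1 and 33.3%, 50.0% and 38.8% in replicate 2, where blocks 3 and 4 rest on 9 and 8 calls (7.49 to 70.1% and 15.7 to 84.3%). Intron 2 had 6.45% and 3.92% MM, whereas intron 3 had 28.1% and 33.3% and intron 4 had 19.0% (5.45 to 41.9) in replicate 1. Exon block 4 holds 1 covered CpG, which carried 38 calls in replicate 1. Processed copies of Nanog exist in the mouse genome. In GRCm38, the closest copy of exon block 2 is the pseudogene Nanog-ps2 on chromosome 12, with 80.1% identity over 382 aligned bases. Exon block 4 has a copy of 87 bases on chromosome X at 96.6% identity. Parts of exon block 5 align at 18114 places elsewhere, over at least 80 bases at 90% identity or more, the closest at 99.4% and the longest over 1325 bases. These alignments were not separated into copies of the exon and repeated sequence. Exon blocks 2 and 3 have none at that level. Copies that the 129 genome may hold beyond the reference were not examined, and the part of copies in these MM calls was not tested. Without sites in exon stretches that have a copy of at least 80 bases at 90% identity or more, which leaves exon block 2 in place, the Nanog window had 63.0% CC as the mean of the replicates, against 61.1%.

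Over the whole windows, HC/CH was the most frequent hydroxymethylated state at all 4 loci in both replicates. Within the gene span alone, Pou5f1 had a mean of 0.322% HC/CH and 0.384% HM/MH, and Sox2 had 0% of both. The Sall4 window had 6.04% HC/CH (5.46 to 6.66) and 7.18% HC/CH, above 87.4% and 97.3% of all gene windows, whose medians were 4.57% and 4.04%. Nanog had 5.54% and 4.12%, above 77.2% and 52.0% of windows. Pou5f1 had 3.63% and 3.75%, and Sox2 had 3.61% and 4.09%, both between the 25.2nd and 51.2nd percentiles. Sall4 had the highest level in both replicates, and the order of the other 3 loci was not the same in them. The means were 6.61 ± 0.811% at Sall4, 4.83 ± 1.00% at Nanog, 3.85 ± 0.339% at Sox2 and 3.69 ± 0.0820% at Pou5f1 (SD, n = 2).

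Relative to the modified calls in these windows, the share with H was high. Of all calls that were not CC, 24.7% and 28.1% held H at Pou5f1, 25.5% and 25.8% at Sall4, 25.9% and 21.6% at Sox2 and 21.3% and 20.8% at Nanog. The median over all gene windows was 12.9% and 9.38%, and each of the 4 loci stood above 97.5% of windows or more in both replicates. This share is a ratio within the modified calls, which were 19.4 to 42.0% of calls at the 4 loci, and does not measure the amount of H. As a percentage of all calls, H-containing states came to 5.55% and 5.45% at Pou5f1, 5.39% and 5.65% at Sox2, 8.60% and 7.79% at Nanog and 9.18% and 10.8% at Sall4, against medians of 8.79% and 6.76%. These levels are uncorrected. In replicate 1, 4.51% of calls on MM spike-ins were HM/MH and 0.709% were HH. The median MM level of gene windows was 50.6% there, above that of each locus, so the median of 8.79% holds more of these miscalls than the loci do.

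HC/CH reached at least 8% in both replicates in 15 of the 92 bins (16.3%), against 7.53% of all bins. Of these, 7 were at Sall4, 3 at Nanog, 3 at Sox2 and 2 at Pou5f1. The Nanog bins from 5 to 6 kb and from 7 to 8 kb past the TSS include exon sites with near copies elsewhere. At 1 such site, 7094 bases past the TSS, 7 of 33 calls and 0 of 8 calls were HC/CH. Bins were not recounted without such sites. The whole Nanog window had a mean of 4.47% HC/CH without them, against 4.83%. At Sox2, the level rose at the downstream border of the CC stretch. The bin from 6 to 7 kb past the TSS had 3.30% and 1.32% HC/CH and the next bin 14.5% (7.17 to 25.0) and 15% (3.21 to 37.9), while CC dropped from 89.0% and 89.5% to 65.2% and 35.0%. One bin further, CC was 27.8% and 26.2%, and HC/CH was 12.5% and 2.38%. The interval of the border bin lay above that of the bin before it in replicate 1, and the intervals overlapped in replicate 2, which had 20 calls in that bin. The border was set by CC level and this bin was picked as the highest in HC/CH at Sox2, so the contrast follows in part from the choice. In the first bin past the Pou5f1 stretch, HC/CH was 3.37% and 0%. Past the Sall4 stretch it was 7.46% in replicate 1, with no calls in replicate 2.

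Sall4 carried HC/CH through the second part of its gene body. The 2367-base exon block 5 had 8.96% HC/CH in 703 calls and 11.7% in 223 calls, beside 61.7% and 43.9% CC. The bin from 12 to 13 kb past the TSS, which lies within this exon, had 9.74% and 9.94% HC/CH from 431 and 161 calls. It also had the highest HM/MH of the locus by the lower replicate, with 6.96% (4.75 to 9.79) and 7.45% (3.91 to 12.7). Exons of Sall4 beyond 1 kb had 7.48% and 11.1% HC/CH and its introns 4.63% and 4.63%, where all protein-coding genes had 5.21% and 4.78% in exons and 4.48% and 3.99% in introns. Levels also differed along the gene. HC/CH was 5.91% and 6.58% in intron 4, 7.65% and 9.38% in intron 5, 10.1% and 10.3% in intron 6 and 6.02% and 10.3% in exon block 7, whereas introns 2 and 3, in the unmodified stretch, had 0 to 0.207%. Exon block 7 has a copy elsewhere in GRCm38 over 467 bases at 90.2% identity, and its level includes the sites there. Without sites in near copies, the whole Sall4 window had a mean of 6.57% HC/CH, against 6.61%. The highest bin at Sall4 by the lower replicate was past the gene end, from 22 to 23 kb past the TSS, with 11.7% (7.29 to 17.5) and 11.8% (5.56 to 21.3). At Nanog the highest bin began in the last bases of the gene, 7 to 8 kb past the TSS, with 12.1% (7.63 to 17.9) and 12.5% (4.73 to 25.2). At Pou5f1 it was 18 to 17 kb upstream, with 8.82% and 13.3% from 34 and 15 calls.

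**Figure D4:**
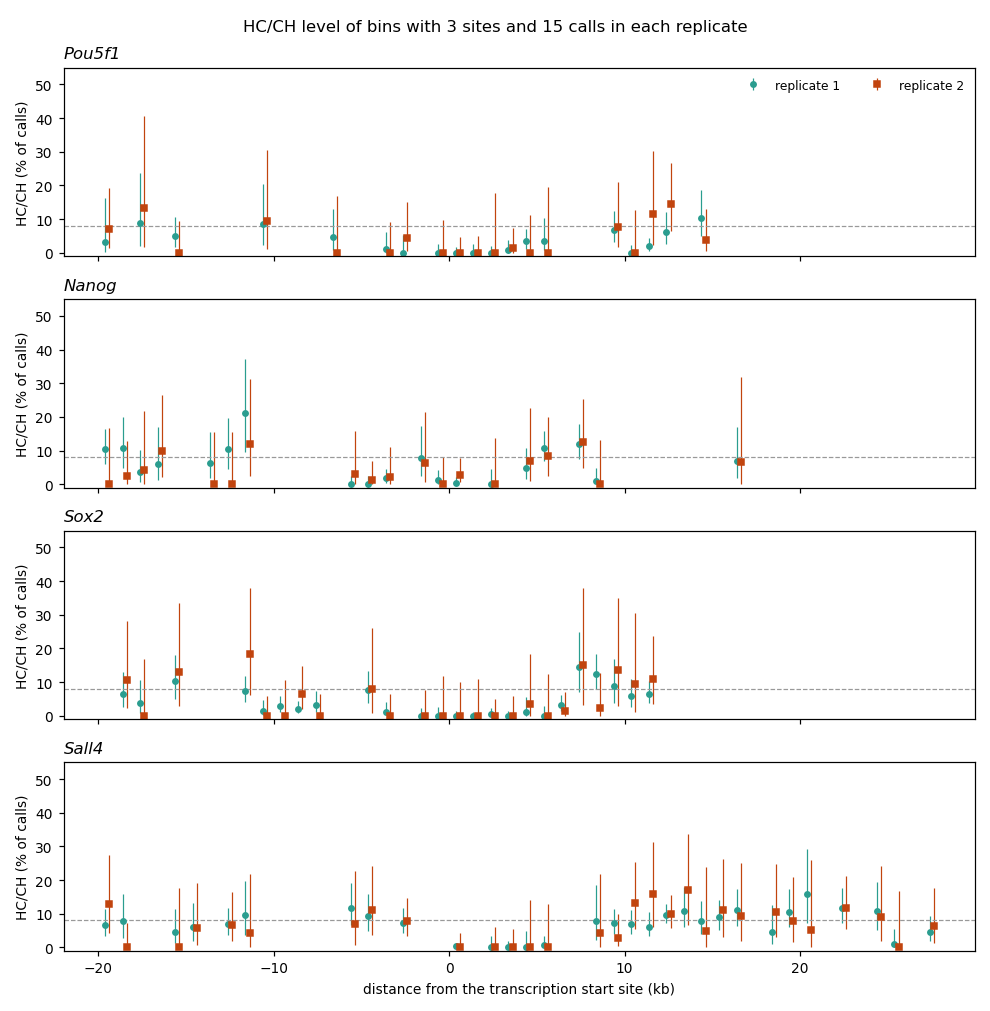
HC/CH level (percentage of calls) of each 1 kb bin with at least 3 sites and 15 calls in each replicate, against the distance from the TSS in kb; circles are replicate 1, squares replicate 2, bars are exact 95% intervals and the dashed line is at 8%. Values sit near 0 around each TSS. In 15 bins both replicates reach the dashed line, among them the bin 7 to 8 kb past the Sox2 TSS and bins 12 to 14 kb past the Sall4 TSS. In other bins only 1 replicate does.

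At higher resolution, the 300 bases where HC/CH peaked, ranked by the replicate with the smaller value, were found at each locus, among windows with 3 sites and 15 calls in each replicate. They are shown as the sequences ranked first in HC/CH at each locus, in the direction of transcription, 5′ to 3′ in GRCm38, with CpGs in capitals. They were picked as the highest of 85 to 180 windows per locus, so their levels are a description. At Sox2 and Pou5f1, the highest 1 kb bins had levels above those of these windows.
Sall4, chr2:168744982-168745281, minus strand: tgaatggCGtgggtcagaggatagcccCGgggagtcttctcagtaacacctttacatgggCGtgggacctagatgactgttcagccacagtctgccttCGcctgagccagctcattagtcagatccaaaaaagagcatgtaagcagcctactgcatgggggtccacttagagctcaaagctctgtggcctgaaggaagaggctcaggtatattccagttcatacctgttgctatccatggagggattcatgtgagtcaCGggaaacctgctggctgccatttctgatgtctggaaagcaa
Nanog, chr6:122691239-122691538, plus strand: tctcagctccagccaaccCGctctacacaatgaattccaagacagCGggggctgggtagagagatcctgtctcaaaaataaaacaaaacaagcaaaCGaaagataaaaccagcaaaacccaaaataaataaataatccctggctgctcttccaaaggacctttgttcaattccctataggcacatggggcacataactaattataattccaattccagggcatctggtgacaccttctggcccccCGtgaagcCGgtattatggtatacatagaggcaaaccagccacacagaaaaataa
Sox2, chr3:34645205-34645504, plus strand: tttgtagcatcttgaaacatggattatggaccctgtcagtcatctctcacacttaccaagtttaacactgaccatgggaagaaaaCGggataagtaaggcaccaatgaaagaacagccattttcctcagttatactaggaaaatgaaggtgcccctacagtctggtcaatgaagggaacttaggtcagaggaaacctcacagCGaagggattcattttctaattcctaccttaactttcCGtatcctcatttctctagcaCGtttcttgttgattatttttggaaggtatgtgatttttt
Pou5f1, chr17:35515368-35515667, plus strand: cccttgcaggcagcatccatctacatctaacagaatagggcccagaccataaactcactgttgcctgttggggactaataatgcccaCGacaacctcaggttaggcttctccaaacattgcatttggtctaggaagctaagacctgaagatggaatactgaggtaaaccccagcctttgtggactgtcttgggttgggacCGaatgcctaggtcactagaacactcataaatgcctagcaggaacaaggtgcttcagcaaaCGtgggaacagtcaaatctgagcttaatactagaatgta

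The Sall4 window lies 22662 to 22961 bases past the TSS, beyond the gene end and before Atp9a, outside annotated exons. HC/CH made up 12 of 47 calls (25.5%, 13.9 to 40.3) and 6 of 22 calls (27.3%, 10.7 to 50.2), beside 34.0% and 27.3% CC. All 5 of its CpGs had HC/CH calls in replicate 1, and all 3 covered in replicate 2 did too. The Nanog window, from position -16250 to -15951 relative to the TSS, had 6 of 20 and 4 of 24 HC/CH calls (30%, 11.9 to 54.3, and 16.7%, 4.74 to 37.4). The Sox2 window, from -5200 to -4901 in an exon of the transcript Gm42692, had 8 of 65 and 2 of 20 (12.3%, 5.47 to 22.8, and 10.0%, 1.23 to 31.7). There, 4 overlapping windows had the same level in replicate 2. The replicates differed in the Sox2 window, with 67.7% and 40.0% CC and 6.15% and 40.0% MM. The Pou5f1 window lies 9350 to 9649 bases past the TSS, outside annotated exons although within the span of Tcf19. It had 5 of 59 and 3 of 23 (8.47%, 2.81 to 18.7, and 13.0%, 2.78 to 33.6). The 4 windows hold 3 to 5 CpGs each. A lower-ranked window at Sall4, 22462 to 22761 bases past the TSS, holds 15 CpGs and had 15.9% and 13.8% HC/CH. Whether HC/CH goes with CpG density was not tested.

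Over the whole windows, though not within the Pou5f1 and Sox2 gene spans, HM/MH was less frequent than HC/CH at each locus. It was 1.82% and 1.59% at Pou5f1, 1.53% and 1.36% at Sox2, 2.67% and 3.32% at Nanog and 2.84% and 3.05% at Sall4. The ratio of HC/CH to HM/MH was 2.00 and 2.36 at Pou5f1, 2.36 and 3.0 at Sox2, 2.12 and 2.35 at Sall4, and 2.07 and 1.24 at Nanog, with medians over all gene windows of 1.20 and 1.6. The Nanog ratio thus lay above the median in replicate 1 and below it in replicate 2. These ratios and medians are uncorrected. In replicate 1, the correction described below lowered the median HM/MH of gene windows more than that of any of the 4 loci. In 4 of the 92 bins (4.35%) HM/MH reached at least 6% in both replicates, against 5.47% of all bins. Of these bins, 3 were at Nanog and 1 at Sall4. With a minimum of 10 calls per site, the mean HM/MH level of the replicates was 1.63% in place of 3.0% at Nanog and 0.92% in place of 1.45% at Sox2.

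The replicates miscalled MM at different rates, which bears on HM/MH. On MM spike-ins, 4.51% of calls were HM/MH in replicate 1 and 0.467% in replicate 2. Solving each replicate's calls with its own spike-in rates gave HM/MH of 1.20% and 1.44% at Pou5f1, 0.984% and 1.16% at Sox2, 1.47% and 3.18% at Nanog and 1.83% and 2.75% at Sall4. HC/CH changed little, to 5.84% and 7.32% at Sall4, 5.28% and 4.06% at Nanog, 3.41% and 4.07% at Sox2 and 3.45% and 3.71% at Pou5f1. After this correction HC/CH still exceeded HM/MH at each locus in both replicates, with ratios of 1.28 to 3.58. The medians over all gene windows became 4.14% and 4.02% for HC/CH. For HM/MH they fell from 3.84% and 2.50% to 1.45% and 2.17%. The background of the ratio therefore moved as well, and its uncorrected medians of 1.20 and 1.6 do not apply to the corrected ratios. No median of the corrected ratio was computed, so whether the loci exceed it was not tested. Corrected HM/MH at Pou5f1 stood above 35.4% and 21.2% of gene windows, where the uncorrected level had stood above 0.734% and 15.8%. After correction, 2 bins in place of 4 reached 6% HM/MH.

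No locus had a detected strand bias. An exact binomial test, two-sided, of plus-strand against minus-strand modification was run in each replicate, with Benjamini-Hochberg adjustment over all gene windows with at least 20 such calls in each replicate. The test treats calls as independent, although neighbouring sites can share a fragment. None of the 4 loci passed an adjusted p of 0.05 in both replicates for MC/CM or HC/CH, nor did Nanog and Sall4 for HM/MH, for which Pou5f1 and Sox2 had too few calls in replicate 2. Nor did any of 20149, 15739 and 13097 gene windows tested for MC/CM, HC/CH and HM/MH (0% each). At an unadjusted p under 0.05 in both replicates and in the same direction, 173, 47 and 27 windows passed, none of them among the 4 loci. The largest imbalance was at Sox2, where 45 MC and 18 CM calls in replicate 2 gave an exact binomial p of 0.000898 and an adjusted p of 0.156, but replicate 1 had 112 and 94 (adjusted p = 0.686 by the same exact test). HC and CH calls at Sall4 numbered 212 and 166 in replicate 1, or 56.1% on the plus strand (50.9 to 61.2), and 54 and 59 in replicate 2, or 47.8% (38.3 to 57.4).

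Other genes of the pluripotency network were read from a list of 25, among them Esrrb, Klf4, Zfp42 and Dppa3, of which 24 had 30 sites in each replicate. Their windows had a median CC level of 52.0% and 50.1%, and Nr5a2 was lowest in both, with 26.7% and 22.5%. Of the 24, 23 lay above the median of all gene windows in each replicate. HC/CH had a median of 5.40% and 5.28% over the list and was highest at Klf5, with 7.76% and 7.50%, above the 6.04% and 7.18% of Sall4. All 4 core factor loci lay above the list's median CC level in both replicates, and Sall4 alone lay above its median HC/CH level in both. The share of calls other than CC that held H was also high over the list, with a median of 18.9% and 16.3%. It exceeded the median of all gene windows at 24 and 23 of the 24 genes. The highest were Klf2 with 26.4% in replicate 1 and Tbx3 with 27.9% in replicate 2, close to the highest of the 4 loci. These are values set side by side, and no test was made between the lists.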

How the data were processed

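Genomic DNA of 2 passages of E14 mESCs was sequenced by SCoTCH-seq. The authors trimmed reads with cutadapt 4.6, aligned inserts to mm10, removed duplicates with Picard 3.1.1 and called CpG states per read pair. They deposited the count of each of 9 states per CpG site and the percent of the site's depth, for sites with at least 5 calls outside blacklisted regions, uncorrected by the spike-ins. Counts were summed over sites per replicate. All member positions fell on CpGs of GRCm38.p6, and genes are from GENCODE vM21. Levels were corrected for miscalls only where stated, with rates from 25 spike-in CpGs of at least 1000 calls (the most frequent call taken as the true state), solving 9 linear equations and setting negative values to 0. Python 3.11.15, NumPy 2.4.6, pandas 2.3.3, SciPy 1.17.1, Matplotlib 3.10.9 and BLAST 2.17.0 were used, and steps were tested on simulated data. The members, gene list and tests were chosen with earlier results of these data known. Named bins were the promoter and the highest bin in HC/CH, HM/MH and MC/CM by the lower replicate. Of the promoters, only bases before the TSS are printed. Alternatives were other weightings, a minimum of 10 calls, shared sites, corrections, gene spans, bin sizes and each replicate alone. With 1 condition, no test between samples was possible. The highest CC level of the gene list is not reported here.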

Additional observations from a re-analysis of the deposited data

How the results depend on the processing

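Levels are means of the 2 replicates and moved by more than their SD in the following cases. The SD was as small as 0.0820 percentage points (HC/CH at Pou5f1), so small shifts are included. Gene spans alone gave CC of 97.4% at Pou5f1, 63.9% at Nanog, 99.2% at Sox2 and 68.7% at Sall4. They gave HC/CH of 0.322% at Pou5f1, 0% at Sox2 and 5.77% at Sall4, and HM/MH of 0.384%, 0% and 2.40% at these loci. A minimum of 10 calls gave CC of 82.0% at Pou5f1, 69.5% at Nanog and 72.5% at Sox2, HC/CH of 3.0%, 3.77% and 4.29%, and HM/MH of 2.01%, 1.63% and 0.92%, with 2.60% at Sall4. Only sites in both replicates gave CC of 81.4%, HC/CH of 2.97% and HM/MH of 1.30% at Pou5f1, and HM/MH of 3.24% at Sall4. Correction with own call rates gave HM/MH of 1.32% at Pou5f1, 2.33% at Nanog, 1.07% at Sox2 and 2.29% at Sall4, and HC/CH of 3.58% at Pou5f1. Rates summed over replicates gave 1.38%, 2.36%, 1.06%, 2.29% and 3.55%. HC/CH at Pou5f1 was 3.85% with equal weight of sites and 3.79% without sites in near copies, an alternative chosen after the data were seen. For bins, the share of all bins past the same level stands in brackets. Past the HM/MH level were 2 of 92 bins of 500 bp (6.42%), 2 of 70 bins of 2 kb (4.01%) and, after correction with own rates, 2 of 92 (2.32%), in place of 4 of 92 (5.47%). Past the CC level were 19 of 70 bins of 2 kb (3.39%) in place of 33 of 92 (6.0%). With at least 5 sites and 30 calls, 9 of 55 were past the HC/CH level (8.54%) in place of 15 of 92 (7.53%). Replicate 2 alone has 92 bins and replicate 1 alone 146. They gave 36 and 50 past the CC level (7.04% and 4.71%), 1 and 0 for MM (14.1% and 3.08%), 6 and 6 for MC/CM (23.4% and 16.3%), 27 and 44 for HC/CH (19.9% and 17.1%) and 12 and 22 for HM/MH (16.2% and 23.8%). The strand test at a minimum of 10 calls per site gave no value, since no locus kept 20 such calls in both replicates, and no other setting called a locus. No paired analysis was possible because there is only 1 group. Replicate 2 has 15 to 30 calls in many bins, which limits levels of a few percent.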

Other observations

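Neighbouring genes share the windows. The bin from 10 to 11 kb past the Pou5f1 TSS, which holds the TSS of Tcf19 (minus strand, chromosome 17, position 35516824), was 98.7% and 100% CC. The next bin, which holds the TSS of Cchcr1 (plus strand, position 35517100), was 95.5% and 76.9% CC. A bin between Tcf19 and Pou5f1, 5 to 6 kb past the Pou5f1 TSS, was 37.3% and 35.3% CC. The bin from 14 to 13 kb upstream of Pou5f1 was 8.51% CC with 70.2% MM in replicate 1, and 0% CC with 40.0% MM in the 5 calls of replicate 2. Upstream of Sox2, a second region from 12 to 7 kb upstream was 76.6 to 93.0% CC in each bin of replicate 1 and 69.7 to 90.9% CC in replicate 2, apart from the TSS stretch. It was bounded by a bin of 27.8% CC, 13 to 12 kb upstream, in replicate 1. Past the Sall4 gene end, the bin from 25 to 26 kb past the TSS, which holds the TSS of Atp9a, was 88.0% and 85.0% CC, and the next bin was 98.2% CC in replicate 1 and not covered in replicate 2.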
